A study of Mus musculus with 16 samples.

Results

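The lumbar spinal cord of SOD1G93A mice was compared with that of wild-type mice at 40 days, an age at which these mice have no symptoms. The comparison holds the samples that the labels place at 40 days, which are 8 of the 16 arrays of the series, 4 for each genotype. The other 8 arrays, of mice of 80 days, set a second age beside the results, and the ratios of all 16 arrays were normalized together. All mice have a B6SJL background and, by the methods, all were male. SOD1G93A mice carry a human SOD1 transgene with a point mutation, and the controls (NonTg) do not carry it. Each array carried Cy3-labeled RNA of a whole lumbar cord and a Cy5-labeled reference, which was a pool of neonatal heart, kidney and liver RNA from both genotypes. The labels call the samples biological replicates, and the dyes were never exchanged.

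Amyotrophic lateral sclerosis is a disease in which motor neurons of the cortex, brainstem and spinal cord are lost. Superoxide dismutase 1 is a cytosolic antioxidant enzyme, and mice that express its mutated human form lose spinal motor neurons in adult life, with activation of the astrocytes and microglia around them. Whole cord holds neurons, astrocytes, oligodendrocytes, microglia and vessels together, with whatever remains of the meninges and nerve roots. In such bulk samples, fewer cells of a type and less RNA per cell cannot be told apart.

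Each value below is the log2 ratio of Cy3 to Cy5 for 1 probe, so a ratio of 0 means equal signal from cord and reference. A change is the SOD1G93A mean minus the wild-type mean on the log2 scale, with 4 arrays in each group. At either age, a probe or gene was called at an unadjusted p under 0.05 from limma's moderated test, the threshold of the study's methods. The exact permutation test of 4 arrays against 4, two-sided, cannot give a p below 0.0286.

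Between 46.1% and 55.3% of probes were well above background in Cy3 on the 8 arrays, and between 57.1% and 70% in Cy5. On wild-type replicate 3 and SOD1G93A replicate 4, 4 and 5 spots had local Cy3 backgrounds of up to 5394 and 8168.5 units, against array medians of 37 and 35. These local backgrounds were set to the array median before correction. Wild-type replicate 4 was the lowest of its group in markers of peripheral myelin and fibroblasts, and SOD1G93A replicate 2 was the highest of its group in those of skeletal muscle, and their values are given with the results that they touch. The 8 arrays lie on 4 slides, replicate 1 of both groups on slide 1 and so on, and each group kept 1 position on every slide, so that position and genotype cannot be told apart.

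The differences between the genotypes were small, and none passed adjustment for multiple tests. Of 21338 probes tested, 963 were called (4.51%), 533 higher and 430 lower in SOD1G93A mice, and the median size of their change was 0.19. With the Benjamini-Hochberg adjustment of limma's test 0 were called, and the lowest adjusted p was 0.997. The share of 4.51% was not above the share of 0.05 that the p threshold lets through by chance. The Cy5 reference of the same arrays, tested as a single channel, gave 180 called probes (0.844%). The Cy3 channel alone gave 553 (2.59%). The reference was a pool, so its share does not measure the variation between mice. Of the 21247 probes measured on all 8 arrays, 602 (2.83%) had no overlap between the 4 SOD1G93A and the 4 wild-type arrays, 328 with SOD1G93A above and 274 below. Arrays assigned to the groups at random would separate in this way for a share of 0.0286, so the count is about that of chance. For a single gene, no overlap is therefore weak evidence of a difference. With 1 probe for each gene, 577 of 14748 genes were called (3.91%), 271 higher (1.84%) and 306 lower (2.07%). The split of calls between directions depended on the scaling. With the signals that Feature Extraction had processed, 1395 of the called probes were higher and 220 lower, without loess 71 were higher and 735 lower, and in the Cy3 channel alone 388 were higher and 165 lower.

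The called gene with the largest difference was Ocel1, which encodes a protein with an occludin-like domain and whose probe lies on chromosome 8 from 69839795 to 69839997 (NCBI35 build). Wild-type ratios of Ocel1 were 0.15, 0.16, 0.75 and 0.82 in replicates 1 to 4. SOD1G93A ratios were 0.10, 0.11, -1.004 and -0.997 in the same order. Replicates 1 and 2 of the genotypes lay within 0.06 of each other, while SOD1G93A replicates 3 and 4 lay far below every other array. The change was -0.92 with a standard error of 0.289, a level 1.90-fold lower (limma p = 0.00963, permutation p = 0.0286). By slide, the SOD1G93A minus wild-type differences of Ocel1 were -0.06, -0.06, -1.76 and -1.82. At 80 days wild-type ratios of Ocel1 were 0.30, 0.10, 0.19 and 0.65, and SOD1G93A ratios were -1.11, 0.10, -1.15 and -0.95, so that 3 of 4 SOD1G93A arrays were low at that age. The change at 80 days was -1.09 (called).

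Fam32a, which encodes a small nuclear protein, lies about 1 Mb further along the chromosome, from 70745348 to 70745407. Its wild-type ratios were 0.62, 0.63, 1.20 and 1.51. The SOD1G93A ratios of Fam32a were 0.79, 0.73, -0.07 and -0.15. As for Ocel1, replicates 3 and 4 were the 2 highest of the wild-type arrays and the 2 lowest of the SOD1G93A arrays, and on slides 1 and 2 SOD1G93A was slightly above wild-type. The change of Fam32a was -0.66 with a standard error of 0.264 (limma p = 0.0307, permutation p = 0.171), and it was not called with the slide as a block. At 80 days it was -0.79 (called). A second Fam32a probe gave -0.21 at 40 days (not called).

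Fcho1, an adaptor that starts clathrin-coated pits, lies at 70176242 to 70176301. Its wild-type ratios were 2.48, 2.46, 2.54 and 2.87, and its SOD1G93A ratios were 2.36, 2.42, 1.80 and 1.87. The groups did not overlap, and the change was -0.47 (limma p = 0.0117, permutation p = 0.0286), beside a change of -0.27 in the Cy5 reference of the same arrays (called). A second Fcho1 probe gave -0.27 (not called). Lsm6, a Sm-like protein of the U6 small nuclear ribonucleoprotein, lies at 77348551 to 77348610. Wild-type ratios of Lsm6 were 1.26, 1.24, 1.48 and 1.56 and SOD1G93A ratios 1.15, 1.18, 0.78 and 0.87, again without overlap. Its change of -0.39 (limma p = 0.00499, permutation p = 0.0286) was called in each of 25 alternative settings. A second Lsm6 probe gave -0.43 (called), while the other 2 gave -0.10 and -0.02 and were not called.

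**Figure D1:**
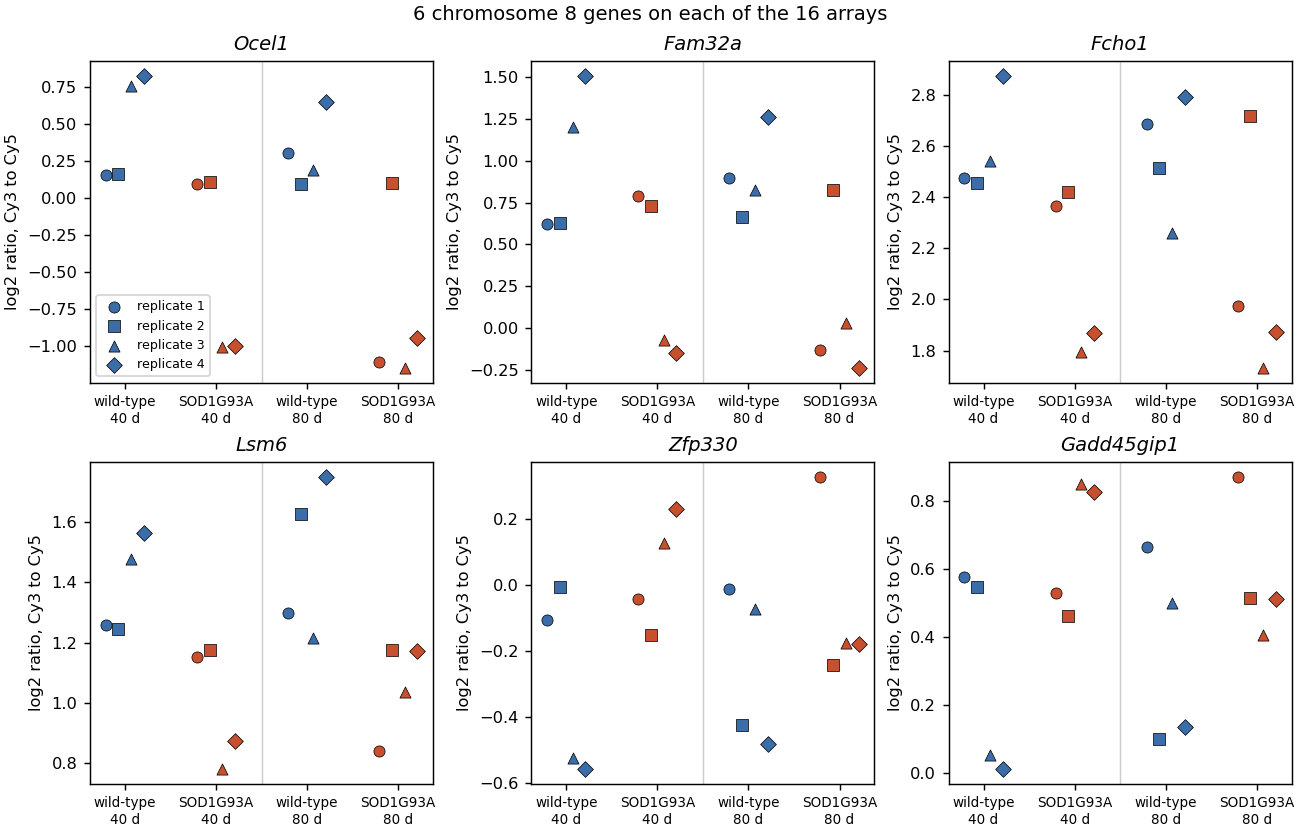
Log2 ratio of Cy3 to Cy5 (vertical axes) of 6 chromosome 8 genes on each of the 16 arrays, with blue points for wild-type and red points for SOD1G93A and 1 symbol for each replicate number. At 40 days SOD1G93A replicates 3 and 4 lie below the other arrays for Ocel1, Fam32a, Fcho1 and Lsm6 and above them for Zfp330 and Gadd45gip1.

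The plot of 6 genes on each array shows that genes with a rise followed the same arrays. Gadd45gip1, a mitochondrial ribosome protein that also binds Gadd45 proteins, had wild-type ratios of 0.58, 0.55, 0.05 and 0.01 and SOD1G93A ratios of 0.53, 0.46, 0.85 and 0.83. The change was 0.37 (limma p = 0.0318, permutation p = 0.171), and a second probe of Gadd45gip1 gave -0.12 (not called). Zfp330, a zinc finger gene, had wild-type ratios of -0.11, -0.01, -0.52 and -0.56 and SOD1G93A ratios of -0.04, -0.15, 0.13 and 0.23, a change of 0.34 (limma p = 0.0317, permutation p = 0.143), and a second probe of Zfp330 gave -0.08 (not called). In both genes replicates 3 and 4 were the lowest of the wild-type and the highest of the SOD1G93A arrays, and neither was called with the slide as a block.

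These genes lie in a stretch of chromosome 8 between 60 and 90 Mb of the NCBI35 build, whose limits were set after its values had been seen, so that the counts are given as a description with no test. In it 39 of 229 genes were called (17.0%), 17 higher and 22 lower. Elsewhere in the genome 538 of 14519 genes were called (3.71%), and on the rest of chromosome 8 the count was 23 of 513 (4.48%). The groups did not overlap for 16 genes of the stretch (7.05%), against 2.53% of all other genes. In the Cy5 reference 4 genes of the stretch were called (1.75%), against 0.806% of all other genes and 0.195% on the rest of chromosome 8. The count fell to 20 with the slide as a block, to 15 without SOD1G93A replicate 3 and to 15 without replicate 4, to 17 without wild-type replicate 3, and to 27 without wild-type replicate 4. Without both of the arrays with bright backgrounds it was 10. Chromosome 8 as a whole had 62 called of 742 genes (8.36%), ahead of chromosome 14 at 5.92% and chromosome 1 at 5.32%.

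The order of arrays that Ocel1 showed was then counted in the stretch. At both ages the order was read from Ocel1, which is itself counted. The limits of the stretch were also set after its values had been seen, so the shares are a description with no test. In 29 of its 227 genes measured on all 8 arrays (12.8%), SOD1G93A replicates 3 and 4 were the 2 lowest and wild-type replicates 3 and 4 the 2 highest arrays, or the reverse, 17 in the first way and 12 in the second. Among 14467 other genes the order was found in 45 (0.311%). At 80 days, where the order of Ocel1 was SOD1G93A replicates 1, 3 and 4 at 1 end of the 8 arrays, it was found in 22 of 228 genes of the stretch (9.65%) and in 420 of 14459 others (2.90%). In the stretch 8 genes showed the orders of both ages in the same direction, namely Ocel1, Fcho1, Fam32a, Calr3, Lsm6, Kxd1, Map1s and AK076954. Of these, Kxd1 and Map1s were not called at 40 days (changes of 0.11 and 0.23). Outside the stretch 2 genes showed the orders of both ages in opposite directions, against 0 in the stretch. Another 2 genes outside it showed both orders in the same direction, Vps37a and Vegfc, which lie on chromosome 8 as well, at 39334463 and 52955111. The first of these is a subunit of the ESCRT-I sorting complex and the other a growth factor of lymphatic vessels, and neither was called at 40 days (changes of -0.11 and -0.13).

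**Figure D2:**
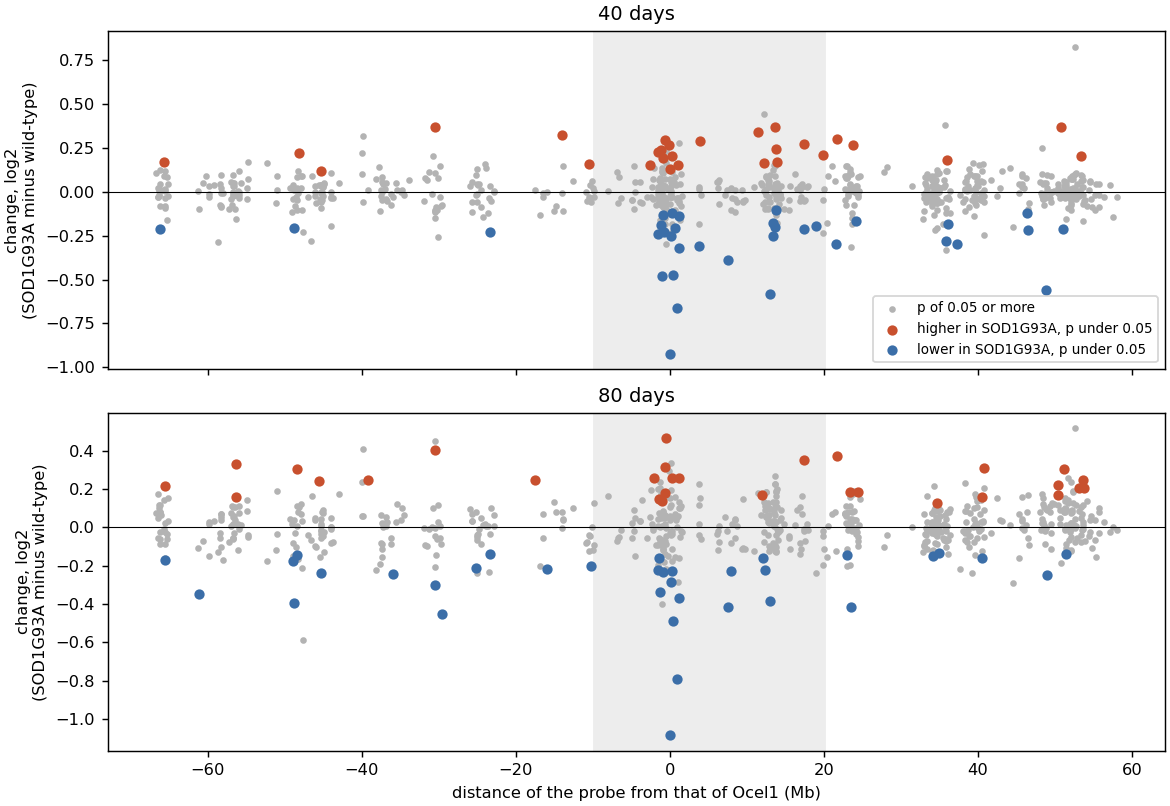
Change of each tested chromosome 8 gene (vertical axes, log2, SOD1G93A minus wild-type) against the distance of its probe from that of Ocel1 (horizontal axis, Mb), at 40 days above and at 80 days below. The stretch of 60 to 90 Mb is shaded, and 39 of its 229 genes at 40 days and 25 of 228 at 80 days had a p under 0.05.

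Further genes of the stretch were called, some of them with the array order of Ocel1 or its reverse and others with other spreads over the arrays. Plvap, a protein of the diaphragms of endothelial fenestrae, had wild-type ratios of -1.82, -1.81, -1.68 and -1.64 and SOD1G93A ratios of -1.88, -2.03, -2.01 and -2.04. The groups did not overlap, and the change was -0.25 at 40 days (limma p = 0.00279, permutation p = 0.0286) and -0.28 at 80 days (called). Haus8, a subunit of the augmin complex of the mitotic spindle, rose by 0.27 (limma p = 0.00419, permutation p = 0.0286), with wild-type ratios of 0.06, 0.03, -0.18 and -0.08 and SOD1G93A ratios of 0.16, 0.13, 0.35 and 0.27, an order of arrays like that of Gadd45gip1. Colgalt1, which adds galactose to collagen, had wild-type ratios of -0.99, -0.96, -1.14 and -1.01 and SOD1G93A ratios of -0.90, -0.87, -0.74 and -0.76, a rise of 0.21 (limma p = 0.00759, permutation p = 0.0286) with no overlap and the same order. Rasd2, a Ras-like protein, rose by 0.29 (limma p = 0.00373, permutation p = 0.0286), with differences by slide from 0.02 to 0.43. The transcript D8Ertd738e fell by 0.58 (limma p = 0.0224, permutation p = 0.114), the latter through SOD1G93A replicates 3 and 4 at -1.09 and -1.11 against -0.41 to 0.12 on the other arrays, and it was not called with the slide as a block. The lowest change among the rises was 0.13, of Use1, a SNARE protein, which was not called with the slide as a block.

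The genes called at 40 days were then read at 80 days, as counts without a test. In the stretch 34 of 39 had the same sign at 80 days, 12 of them were called at both ages in the same direction and 0 in opposite directions. Of 525 called genes outside it, 217 had the same sign (41.3%), 11 were called in the same direction and 34 in opposite directions. Genes higher at 40 days kept their sign in 96 of 268, and those lower in 155 of 296. For comparison, 954 of 14581 genes were called at 80 days when measured with the same probes (6.54%).

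**Figure D3:**
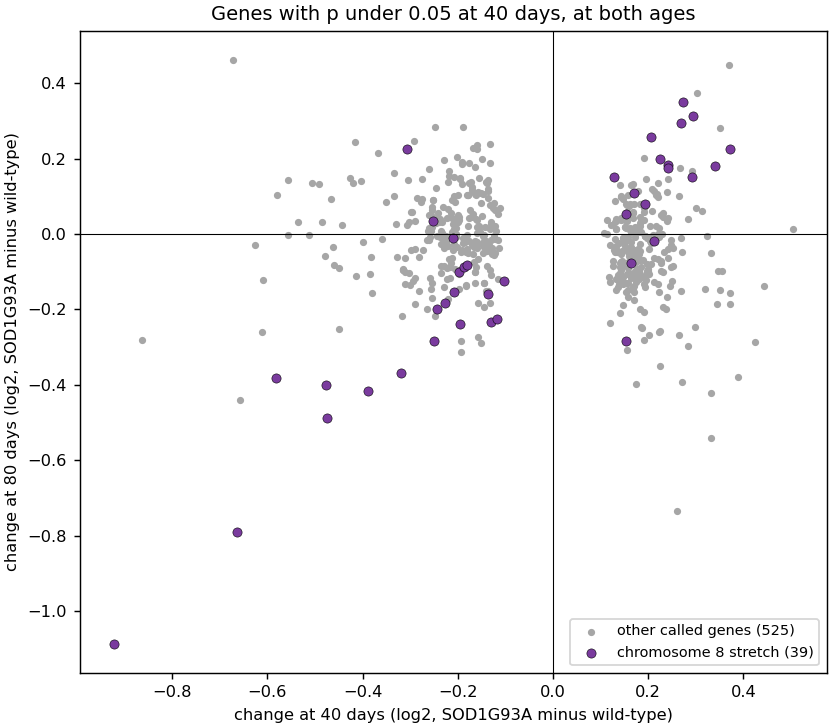
Change at 80 days (vertical axis, log2, SOD1G93A minus wild-type) against the change at 40 days (horizontal axis) of the 564 genes called at 40 days and measured at both ages. Of the 39 genes of the chromosome 8 stretch, in purple, 34 have equal signs at both ages, against 217 of the 525 others, in grey.

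Outside the chromosome 8 stretch the genes that fell most were of several kinds. Stk25, a kinase of the Golgi apparatus involved in neuronal polarity, had wild-type ratios of 0.74, 0.08, 0.72 and 0.62 and SOD1G93A ratios of -0.02, -0.09, -0.12 and -0.05. All SOD1G93A arrays were lower than all wild-type arrays, of which replicate 2 was closest to them. The fall of Stk25 was 0.61 on the log2 scale with a standard error of 0.130, or 1.53-fold (change -0.61, limma p = 0.000891, permutation p = 0.0286), and without wild-type replicate 2 it was the 1 call with an adjusted p under 0.05 (0.00875 from limma). At 80 days the change of Stk25 was -0.12 (not called). Crispld2, a secreted protein with a cysteine-rich domain, lies on chromosome 8 outside the stretch, at 118686443. Its wild-type ratios were -0.04, 0.18, -0.20 and 0.30 and its SOD1G93A ratios -0.45, -0.57, -0.61 and -0.36. The change of Crispld2 was -0.56 (limma p = 0.000422, permutation p = 0.0286), the lowest p of the genes described here, and at 80 days it was 0.00 in size (not called).

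Among the other large falls, those of Iqgap1, a cytoskeletal scaffold, and Tbx2, a T-box transcription factor, came with a high wild-type replicate 4. Iqgap1 ratios were -2.65, -2.09, -2.62 and -1.30 in wild-type and -2.78, -2.83, -2.83 and -2.74 in SOD1G93A mice, a change of -0.63 (limma p = 0.0313, permutation p = 0.0286). Tbx2 was at -2.44, -2.35, -2.38 and -1.51 in wild-type and at -2.71, -2.78, -2.56 and -2.76 in SOD1G93A mice, a change of -0.54 (limma p = 0.0147, permutation p = 0.0286). Without that array the changes of Iqgap1 and Tbx2 were -0.34 and -0.32, and both were called. The transcripts TC1445297, AK037643 and 9530010C24Rik were also highest on wild-type replicate 4 (1.32, 1.17 and 0.83), and the Cy5 reference of these 3 probes moved the same way, with changes of -0.39, -0.39 and -0.22. Plac9a, a secreted protein first described in placenta, fell by 0.67 (limma p = 0.0123, permutation p = 0.0286), with SOD1G93A ratios of -2.01, -2.99, -2.01 and -2.89 against wild-type ratios between -1.93 and -1.66, and at 80 days it rose by 0.46 (called). Asgr1, known as a liver receptor for glycoproteins, changed by -0.45 and the histone gene H4c9 by -0.49, each with no overlap.

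The rises were smaller than the falls. Ddx6, an RNA helicase of processing bodies, had wild-type ratios of 0.48, 0.49, 0.93 and 0.72 and SOD1G93A ratios of 1.19, 1.16, 0.98 and 0.98. All SOD1G93A arrays were above all wild-type arrays, with replicates 3 and 4 closer together than replicates 1 and 2. The rise was 0.43 with a standard error of 0.103, or 1.34-fold (limma p = 0.00211, permutation p = 0.0286). At 80 days Ddx6 fell by 0.29 (change -0.29, called), and the difference between the ages was 0.71 (p under 0.05 for the interaction in limma). Foxn3, a forkhead transcription factor, had wild-type ratios of 0.09, 0.13, 0.53 and 0.30 and SOD1G93A ratios of 0.58, 0.53, 0.61 and 0.89, with SOD1G93A replicate 2 level with wild-type replicate 3. It changed by 0.39 at 40 days (limma p = 0.00537, permutation p = 0.0571) and by -0.38 at 80 days (called), while the other 2 Foxn3 probes gave -0.07 and -0.04 at 40 days.

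Fut9, which makes the Lewis X epitope of neural cells, rose by 0.36 (limma p = 0.00688, permutation p = 0.0286), from wild-type ratios between 0.88 and 1.37 to SOD1G93A ratios between 1.40 and 1.53. Tgs1, which caps small nuclear RNAs with trimethylguanosine, rose by 0.30 (limma p = 0.00539, permutation p = 0.0286) and fell by 0.25 at 80 days (called). These values come from 1 probe, and the other 3 Tgs1 probes gave 0.05, 0.03 and 0.03 at 40 days (not called). Adgrg1, an adhesion receptor of neural precursors and glia, and Gsk3b, the kinase that phosphorylates tau and beta-catenin, rose by 0.27 each (0.268 and 0.265). Mir124-2hg, the host transcript of the neuronal microRNA miR-124, had wild-type ratios of 2.37, 2.40, 2.34 and 2.33 and SOD1G93A ratios of 2.91, 2.41, 2.91 and 2.53. It rose by 0.33 (limma p = 0.0135, permutation p = 0.0286), mostly on replicates 1 and 3, while its second probe changed by -0.13 (not called) and at 80 days the first probe fell by 0.54 (change -0.54, called). Rassf4, a Ras-association protein, rose by 0.32 (limma p = 0.0044, permutation p = 0.0286) with 1 probe, whereas its other 3 probes gave -0.003, -0.02 and 0.03.

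**Figure D4:**
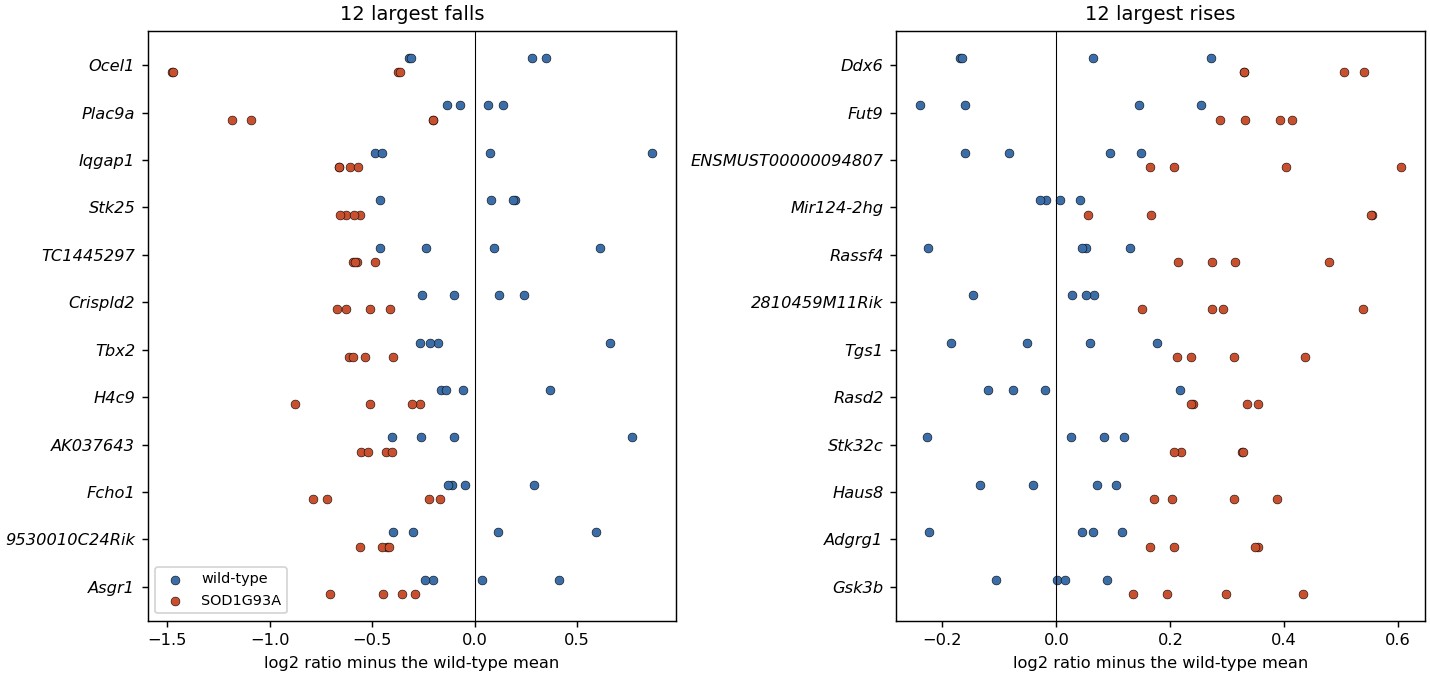
Ratio on each array minus the wild-type mean (horizontal axes, log2) of the 12 genes with the largest falls and the 12 with the largest rises among genes with a p under 0.05 and no overlap, in blue for wild-type and red for SOD1G93A. The falls reach -0.92 (Ocel1) and the rises 0.43 (Ddx6).

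All calls among astrocyte and central myelin markers were higher. Of 21 astrocyte markers tested 4 were called higher and 0 lower, with a median change of 0.08 against -0.003 over all genes. A change above 0 was found in 17 of the 21, and the lowest change was -0.21. Over the settings tried, 0 to 7 astrocyte markers were called, and their median ranged from 0.004 to 0.11. Over all genes 1.84% were called higher and 2.07% lower, the background to each count of a list given here. S100b, a calcium-binding protein of astrocytes, had wild-type ratios of 7.71, 7.70, 7.55 and 7.69 and SOD1G93A ratios of 7.76, 7.94, 7.92 and 7.99, a rise of 0.24 with no overlap (limma p = 0.00408, permutation p = 0.0286). Gfap, the intermediate filament of astrocytes, had wild-type ratios of 6.12, 6.23, 6.45 and 6.47 and SOD1G93A ratios of 6.47, 6.57, 6.58 and 6.62, which rose by 0.24 (limma p = 0.0164, permutation p = 0.0571). Its lowest SOD1G93A and highest wild-type arrays were level, and other Gfap probes gave 0.19 and 0.25 (not called). Agt, the precursor of angiotensin, rose by 0.20 (limma p = 0.00629, permutation p = 0.0286) and Slc1a3, the glutamate transporter GLAST, by 0.19 (limma p = 0.041, permutation p = 0.0857). None of the 4 was called at 80 days, where their changes were -0.06, -0.17, -0.04 and -0.21. Aqp4, the water channel of astrocyte end feet, changed by 0.24 without passing the test (limma p = 0.0562, permutation p = 0.143), beside 0.22 in the Cy5 reference (called).

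Of 23 oligodendrocyte genes 3 were called higher and 0 lower, with a median of 0.10, which turned to -0.01 without both arrays of bright backgrounds. Cldn11, the tight junction protein of myelin, rose by 0.17 (limma p = 0.0326, permutation p = 0.0857). Mbp, myelin basic protein, rose by 0.15 (limma p = 0.0437, permutation p = 0.0286) and was called in 6 of 25 alternative settings, the slide as a block not among them. The summed Cy3 signal of the oligodendrocyte list was 98531 to 121788 units in wild-type and 117765 to 119703 in SOD1G93A mice, and that of astrocytes 74192 to 93106 and 83067 to 92541, so that neither list separated the groups by its sum.

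Neuronal genes had few calls, most of them higher. General neuronal markers had 2 called higher of 18, Map2, a dendritic microtubule protein, by 0.15 and Celf4, an RNA-binding protein of excitatory neurons, by 0.20, and their median of 0.05 turned to -0.01 without loess and to -0.02 in the series matrix. Celf4 had no overlap, with wild-type ratios of 5.18, 5.21, 5.02 and 4.91 and SOD1G93A ratios of 5.25, 5.25, 5.35 and 5.30. Of 17 ionotropic glutamate receptor genes 3 were called higher and 0 lower. These were Grin1, the obligatory NMDA receptor subunit, by 0.25, Gria4, an AMPA receptor subunit, by 0.17, and Grin2a by 0.13, while the other 2 Gria4 probes gave 0.06 and -0.20 (not called). Of 33 voltage-gated channel genes the calcium channel genes Cacna1b (0.17) and Cacnb3 (0.13) and the potassium channel gene Kcnc1 (0.15) were called higher and 0 lower. In that list 26 genes had a change above 0, with a range from -0.32 to 0.21, and other Kcnc1 probes gave 0.13 and 0.07 (not called). With the slide as a block Grin2a, Cacnb3 and Kcnc1 were not called. Of 23 genes of GABA and glycine signalling, Gabra3 was higher by 0.22. At 80 days none of these receptor and channel genes was called.

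Motor neuron genes showed little at this age. Chat, the enzyme that makes acetylcholine, and Vipr2 were not well above background on any of the 8 arrays, so that the defining marker of motor neurons gave no usable level. Of 18 motor neuron and cholinergic genes tested 1 was called, Calcb, which encodes a form of the neuropeptide CGRP and fell by 0.29 (limma p = 0.0183, permutation p = 0.0571). Slc18a3, the vesicular acetylcholine transporter, changed by -0.10 (not called) and Prph, the filament peripherin, by -0.11 (not called). Of the 18 genes 9 had a change above 0, and the median change was -0.01, with a range from -0.29 to 0.24. Calca, which encodes the main form of CGRP in motor and sensory neurons, had wild-type ratios of 4.34, 4.64, 4.15 and 4.46 and SOD1G93A ratios of 4.13, 3.61, 3.83 and 4.18. It was lower on each slide and fell by 0.46, or 1.38-fold (limma p = 0.0077, permutation p = 0.0571), with an overlap of 1 array pair. Of sensory neuron markers Scn10a, Scn11a and Avil were not well above background on any array. At 80 days Calca changed by -0.03 (not called).

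Of 29 immediate early genes 3 were called, and the brighter probes did not share a direction. Nr4a1, an orphan nuclear receptor induced by activity and stress, had wild-type ratios of -0.74, -0.74, -0.89 and -0.86 and SOD1G93A ratios of -0.998, -1.21, -1.40 and -1.29. The groups did not overlap, and the fall of 0.42, or 1.33-fold, was called in each of 25 alternative settings (change -0.42, limma p = 0.00068, permutation p = 0.0286). Ier2 changed by -0.25 and Klf2 by 0.15, both lying in the chromosome 8 stretch. A second Klf2 probe gave -0.18 (not called), so that the direction of Klf2 was not settled, and with the slide as a block Nr4a1 alone of the 3 was called. Fos and Egr1, the best known genes of the group, changed by 0.02 and 0.04 and were not called. Changes over the 29 genes ran from -0.69, of a gene that was not called, to 0.15. At 80 days Nr4a1 was at 0.24 (not called), a difference between ages of -0.66 (p under 0.05 for the interaction in limma). The promoters of Nr4a1 and Calca are shown because both genes are known to respond to cAMP and both were lower on each slide. They are 250 bases before the start in RefSeq's GRCm38.p6, Nr4a1 at chr15:101266596-101266845 on the forward strand and Calca at chr7:114636358-114636607 on the reverse strand, written 5′ to 3′ with the motif TGCGTCA, or TGACGCA on the other strand, in capitals.
Nr4a1: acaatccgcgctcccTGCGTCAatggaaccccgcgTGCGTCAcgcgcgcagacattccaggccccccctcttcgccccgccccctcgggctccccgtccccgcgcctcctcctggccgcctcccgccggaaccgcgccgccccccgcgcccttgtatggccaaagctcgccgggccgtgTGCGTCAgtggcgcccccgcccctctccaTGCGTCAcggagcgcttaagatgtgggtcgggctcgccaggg
Calca: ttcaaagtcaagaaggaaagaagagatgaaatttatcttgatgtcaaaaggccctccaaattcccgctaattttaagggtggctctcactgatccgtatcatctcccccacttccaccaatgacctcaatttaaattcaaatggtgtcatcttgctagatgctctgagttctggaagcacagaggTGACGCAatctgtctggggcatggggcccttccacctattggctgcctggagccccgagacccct
The motif occurs 4 times in the Nr4a1 window and 1 time in that of Calca, and both strands were searched. Of 32851 promoters 574 hold it (1.75%), as do 350 of those of 10340 tested genes (3.38%), 6 of 204 genes called lower (2.94%) and 2 of 163 called higher (1.23%). Only the Nr4a1 window holds 4 copies or more. The arrays measured no binding at these sequences.

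Genes of the immune response showed no common direction. Of 25 microglia and macrophage markers 2 were called higher and 1 lower. C1qc, a chain of complement C1q, had wild-type ratios of 0.14, 0.16, 0.22 and 0.45 and SOD1G93A ratios of 0.86, 0.77, 0.43 and 0.31, a rise of 0.35 (limma p = 0.0188, permutation p = 0.0857) borne by SOD1G93A replicates 1 and 2. C1qb followed the same arrays and rose by 0.29 (limma p = 0.0213, permutation p = 0.0857). P2ry13, a purine receptor of microglia, fell by 0.30 (limma p = 0.017, permutation p = 0.0286), with wild-type replicate 4 at 1.16 above the other wild-type arrays at 0.72 to 0.78 and SOD1G93A arrays between 0.37 and 0.66. Cd68, a lysosomal marker of phagocytes, changed by 0.002 (not called). Of 22 MHC and antigen presentation genes B2m, the light chain of class I molecules, fell by 0.25 (limma p = 0.0172, permutation p = 0.0857), and 0 of 23 interferon response genes and 0 of 19 chemokine, cytokine and receptor genes were called.

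All calls among genes of nerve sheath, matrix and vessel wall were lower, and arrays of 1 group differed widely. Of 10 peripheral myelin genes 1 was called, Drp2, a dystroglycan-binding protein of Schwann cells, which fell by 0.47 (limma p = 0.00732, permutation p = 0.0571). The median change of the list was -0.58. The summed Cy3 signal of the list was 8070, 16216, 10672 and 2403 units in wild-type and 5029, 3238, 2056 and 6709 in SOD1G93A mice, so that wild-type replicate 4 was as low as the lowest SOD1G93A arrays and the other wild-type arrays were above all of them. Fibroblast markers ran alike, with 0 of 17 called, a median of -0.31 and sums of 13264, 12331, 10787 and 7000 units in wild-type against 6075 to 8952 in SOD1G93A mice. Of 38 collagen, laminin and matrix genes 5 were called lower and 0 higher, with a median of -0.15. Among them Mmp2, a gelatinase, fell by 0.29 with no overlap (limma p = 0.00707, permutation p = 0.0286), Col16a1 by 0.32, Htra3 by 0.31 and Col18a1 by 0.36, of which Col18a1 was not called with the slide as a block, and a second Htra3 probe gave 0.04 (not called). Without wild-type replicate 4 the calls rose to 8 in peripheral myelin, 14 in fibroblasts and 22 in collagens and matrix, and whether the tissue taken with the cord had a part in these differences was not tested.

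**Figure D5:**
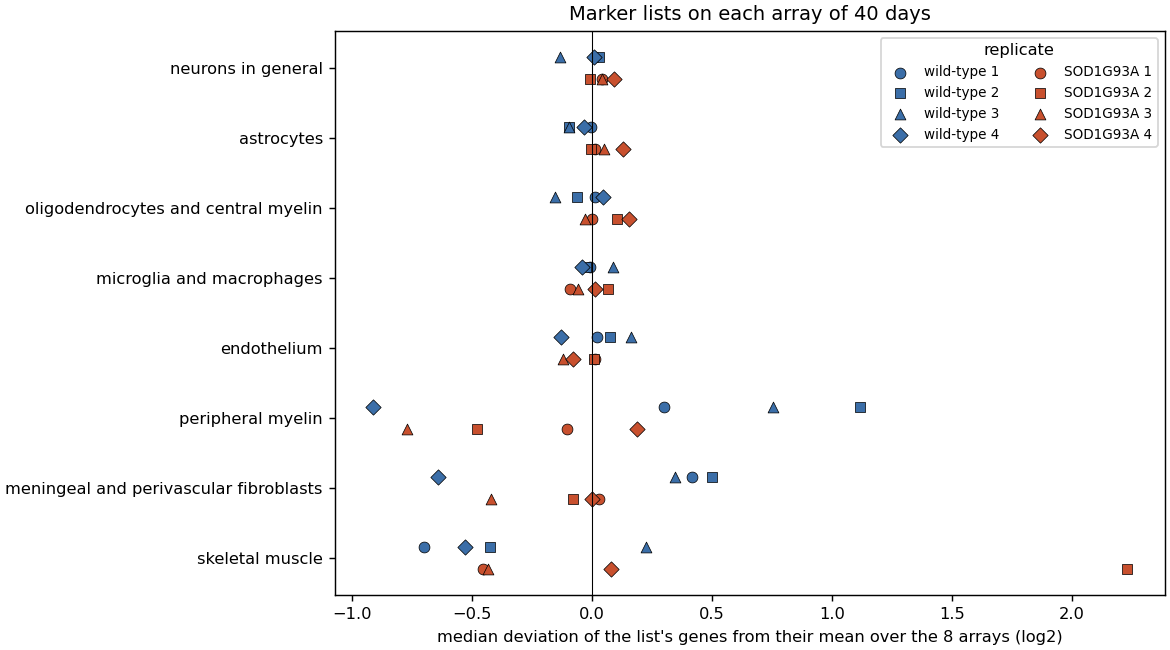
Median deviation of the genes of a marker list from their mean over the 8 arrays of 40 days (horizontal axis, log2), with blue points for wild-type and red points for SOD1G93A and 1 symbol for each replicate. Wild-type replicate 4 lies at -0.91 for peripheral myelin, where the other wild-type arrays lie at 0.30 to 1.12, and SOD1G93A replicate 2 lies at 2.23 for skeletal muscle.

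Skeletal muscle genes had 0 calls of 14 and a median change of 0.61, which was 0.04 without SOD1G93A replicate 2. Their summed signal was 9420 units on that array and 1108 to 2375 on the others. Cox6a2, the muscle and heart form of a cytochrome oxidase subunit, was called higher by 0.50 (limma p = 0.0155, permutation p = 0.114), with SOD1G93A ratios between -4.96 and -4.63 and wild-type ratios of -5.52, -5.52, -4.77 and -5.63. It was called also without SOD1G93A replicate 2, as in each of 25 alternative settings. Of 18 endothelial markers Plvap and Emcn, a sialomucin of veins and capillaries, were lower, by 0.25 and 0.21 in size, and of 12 pericyte and smooth muscle markers Myh11, smooth muscle myosin, fell by 0.33 (limma p = 0.00966, permutation p = 0.0571). The summed signals of these lists overlapped between the groups, at 6887 to 8571 units in wild-type and 6399 to 7690 in SOD1G93A mice for endothelium.

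Of 30 antioxidant and metallothionein genes 2 were called, both lower. Hmox1, the heme oxygenase induced by oxidative stress, had wild-type ratios of -0.91, -0.88, -0.98 and -1.27 and SOD1G93A ratios of -1.54, -1.48, -1.18 and -1.06, a change of -0.31 (limma p = 0.03, permutation p = 0.0857) that came from replicates 1 and 2 and was not called with the slide as a block. It lies in the chromosome 8 stretch but not with the array order of Ocel1. Nqo1, a quinone reductase, fell by 0.18 with no overlap (limma p = 0.0132, permutation p = 0.0286). Mouse Sod1 changed by -0.02 (limma p = 0.795, permutation p = 0.6), and a second probe by 0.11 (not called). These probes were designed on the mouse gene, so their values do not check the genotype labels. Gapdh, a glycolytic enzyme often used as a control, changed by 0.03 (limma p = 0.656, permutation p = 0.686) with the brighter probe, which the files place on chromosome 1, and by -0.08 (not called) with that on chromosome 6.

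Of 81 oxidative phosphorylation genes 1 was higher, Cox6a2, and 2 lower, Ndufb11 and Ndufb8 of complex I, by 0.18 and 0.16 in size, while a second Ndufb8 probe gave 0.03 (not called). Calls were absent at this threshold among 47 proteasome, 34 ubiquitin-conjugating enzyme, 37 glycolysis and TCA cycle, 78 mitochondrial ribosome, 26 endoplasmic reticulum stress and 19 clock genes, and among 30 genes linked to inherited forms of the disease. Of 83 cytosolic ribosomal protein genes Rps15a was lower by 0.16, with a second probe at 0.005 (not called). Of 60 spliceosome genes Lsm12 (0.14) and Prpf38b (0.13) were higher and Lsm6 and Srsf11 (-0.14) lower, with second probes at -0.006 for Lsm12 and 0.12 for Srsf11 (not called). With the slide as a block Rps15a was not called, and Lsm6 alone of the 4 was. In heat shock genes Hsph1, a large chaperone that binds misfolded proteins, rose by 0.18 with no overlap (limma p = 0.0156, permutation p = 0.0286). Glg1, a Golgi protein measured by the study with PCR at this age, changed by 0.04 (limma p = 0.531, permutation p = 0.543) with its brighter probe and by 0.36 (called) with the other.

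By 10 Mb windows, of which 231 held 20 genes or more, the highest share of genes called lower was on chromosome 8 from 70 to 80 Mb, 8 of 54 (14.8%, exact binomial 95% interval 6.62% to 27.1%, which covers counting error only). Next came chromosome 9 from 0 to 10 Mb, with 3 of 25. These were Casp1, the protease that matures interleukin-1 beta, which fell by 0.22 with no overlap, Birc3, an inhibitor of apoptosis, and Aasdhppt. In chromosome 6 from 60 to 70 Mb 2 of 20 were lower, among them Gadd45a, a stress response gene, by 0.15. Windows with the highest shares of higher genes were chromosome 12 from 90 to 100 Mb, with 3 of 30, chromosome 18 from 0 to 10 Mb, with 2 of 21, and chromosome 8 from 50 to 60 Mb, with 2 of 22. With bright backgrounds left as deposited, the highest share of lower genes was instead on chromosome 4 from 50 to 60 Mb, with 2 of 34 (5.88%). The first window of higher genes held Foxn3, Atxn3, the ataxin-3 deubiquitinase, which rose by 0.15, and Cpsf2, a subunit of the polyadenylation complex. The last held Clcn3, a chloride and proton exchanger of endosomes, and Scrg1, a gene first found raised in scrapie, which rose by 0.16 and 0.32, while a second Clcn3 probe gave -0.03 (not called). With the slide as a block Aasdhppt, Atxn3 and Clcn3 were not called.

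Among the 131 genes named by the rules given below 127 were called, and 89 of these were called with the slide as a block. Many were named for large changes, so these counts do not describe all 577 called genes. A total of 9 of the 127 were called in each alternative that gave a value, namely Cox6a2, Crispld2, Ddx6, Foxn3, Lsm6, Nr4a1, Plxna1, Stk25 and Wdr78. The last of these, a cilia gene that is also known as an axonemal dynein subunit, fell by 0.31 with no overlap, and Plxna1, a semaphorin receptor, fell by 0.28 with no overlap, while a second Plxna1 probe gave 0.06 (not called). The difference between the ages was tested on all 16 arrays, where 1475 of 21953 probes had a p under 0.05 (6.72%), and 0 passed adjustment in limma (lowest adjusted p 0.502).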

How the data were processed

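The authors hybridized Cy3-labeled cord RNA with a Cy5-labeled reference on 2-color Agilent whole mouse genome arrays and read the scans with Feature Extraction (9.5.3.1 in the submitters' processing notes). The deposited scanner output holds median intensity of spot and local background on a linear scale, not normalized, with the authors' other Feature Extraction marks for outlier and well-above-background spots. The series matrix, used as an alternative, holds the authors' normalized log2 values, which follow the Cy3 channel. Its centring is not given in the sources used here.

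Local backgrounds more than 20 units above their own spot were set to the array median of that channel. Normexp (offset 50), loess within and Aquantile between arrays were then applied to all 16 arrays together, those of 80 days included. This was done with limma 3.58.1 in R 4.3.3 (data.table version 1.17.8, statmod 1.5.0). Control and outlier spots were left out and spots of 1 probe averaged. An array holds 45018 spots, 43379 of them not controls, for 41174 probes, of which 32734 were named from RefSeq. Testing asked for Cy3 marked well above background on 3 of 4 arrays in either genotype, and for values on 2 or more arrays in both. The number of arrays limits the precision. Median spot signals in Cy3 were 50 to 57 units and median backgrounds 35 to 38, and close to background a change is understated. Tests were lmFit and eBayes on 4 against 4 arrays, an interaction on 16 arrays, and exact permutation for single genes.

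Each gene is given by its brightest tested probe, and others where their sign differs. Named genes were the 12 largest rises and falls among called genes without overlap, up to 4 called genes in each direction from each list, called genes of the described windows and of the chromosome 8 stretch, Gapdh, Sod1 and the genes the study checked by PCR at 40 days, and a few genes that these rules name are not reported here. Other genes named in the text, such as Chat or Fos, were taken from the lists after their values were seen. The genes, lists and tests were chosen with earlier results of these data known. The script was checked on simulated data. Alternatives were other backgrounds, signals, normalizations, filters and spreads, the slide as a block and each array left out. Coordinates are those of the files (NCBI35), and promoters come from RefSeq (GRCm38.p6). Figures were drawn with matplotlib 3.10.9. Further animals that the methods mention were not analysed here.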

Additional observations from a re-analysis of the deposited data

Results flagged for a closer look

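In each group of 4 arrays the highest or lowest array was set against the rest, by Dixon's criterion, which chance exceeds in about 1 of 20 groups. It was exceeded in 9 of 262 groups of the named genes and in 2 of 28 groups of the marker lists. Wild-type replicate 4 stood apart for P2ry13 (1.16) and Tbx2 (-1.51), and for the fibroblast markers, whose median deviation was -0.64. Wild-type replicate 3 stood apart for S100b (7.55), Cox6a2 (-4.77) and the general neuronal markers (-0.14), and wild-type replicate 1 for Pbx4 (0.66). SOD1G93A replicate 4 stood apart for Mmp2 (-2.07), Rps15a (-1.90) and Slc1a3 (2.29), and SOD1G93A replicate 2 for Scrg1 (3.23). The values of genes are log2 ratios of Cy3 to Cy5.

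The difference of the genotypes differed between the ages, at an unadjusted interaction p under 0.05 in limma on 16 arrays, for 36 of the 131 named genes, against 6.72% of all probes. Most of these genes were chosen by their change at 40 days, which is part of that difference, so the count is no evidence of a difference between the ages, and the lowest adjusted p among all probes was 0.502. The values are the change at 40 days minus that at 80 days on the log2 scale. Genes lower at 40 days and not at 80 days were Plac9a (-1.13), Nr4a1 (-0.66), H4c9 (-0.62), TC1445297 (-0.59), Tbx2 (-0.57), Crispld2 (-0.56), Drp2 (-0.56), 9530010C24Rik (-0.50), Myh11 (-0.43), P2ry13 (-0.36), Plxna1 (-0.36), Cspg4 (-0.28), Rps15a (-0.27) and the transcript BY755665 (-0.17).

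Genes of RNA handling with a higher change at 40 days than at 80 days were Ddx6 (0.71), Tgs1 (0.55), Lsm12 (0.22) and Prpf38b (0.21), and the host transcript Mir124-2hg differed by 0.87. Glial genes among them were Gfap (0.41), Slc1a3 (0.40), Cldn11 (0.32) and S100b (0.31). Those of neurons were Map1b, a microtubule protein of axons (0.53), Gabra3 (0.48), Map2 (0.31) and Gria4 (0.30). The others were Foxn3 (0.77), the transcript ENSMUST00000094807 (0.53), Rassf4 (0.47), Klf2 (0.44), Stk32c (0.42), Hsph1 (0.30), Atxn3 (0.28), Atp6v0b (0.25) and Scoc (0.24). These values were not separated from differences of the array position on the slide, which differs between the ages, and its part was not tested.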

How the results depend on the processing

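No gene was called after adjustment at the main setting, changes were small, and the number of arrays limits their precision. Array position is the same for every array of a group. Bright backgrounds left as deposited lowered the calls to 249 probes, 242 probes without overlap, 8 genes of the chromosome 8 stretch, 20 calls over the gene lists, 792 probes that differed between ages and a highest share by window of 5.88%, with the cause not tested. Calls of probes were 1615 with processed signals, 553 in the Cy3 channel alone, 538 in the series matrix and 1900 without a filter on dim probes, where more probes were tested and 1187 had no overlap. The chromosome 8 stretch had 21 calls in the Cy3 channel alone, 21 in the series matrix, 25 with array weights, 20 with the replicate block and 10 without both arrays of bright backgrounds, an alternative added after seeing the data. Calls over the gene lists were 42 in the Cy3 channel alone and 111 with array weights.

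With each array left out in turn, probes called ranged from 725 without SOD1G93A replicate 2 to 1913 without wild-type replicate 4, genes of the stretch from 15 to 41, and calls over the gene lists from 47 to 162. Sod1 ranged from -0.043 to 0.012, Gapdh from -0.0052 to 0.067 and Glg1 from -0.0034 to 0.064. Some changes turned sign. For Sod1 the change was 0.0070 with mean signals, 0.0010 with processed signals and 0.012 in the Cy3 channel alone. For Gapdh it was -0.033 without loess, -0.031 in the Cy3 channel alone, -0.074 in the series matrix and -0.029 without both arrays of bright backgrounds. Without loess it was -0.036 for Glg1, 0.054 for TC1445297, 0.11 for AK037643 and -0.018 for ENSMUST00000037029. In the Cy3 channel alone it was 0.023 for CB588406, and in the series matrix 0.0038 for CB588406 and -0.020 for Bcan.

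The replicate numbers are those of the slides. Deviations of same-numbered samples from their group means correlated at 0.12, -0.058, -0.0099 and -0.065, so the numbers were not taken to pair the samples. With the replicate block 971 probes were called, of which 712 were called without it, and 60 genes over the lists.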
